A study of Mus musculus with 8 samples.

Results

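Transcripts of 10 S100 genes were followed in the cardiac ventricles of tumor-bearing and control mice. The genes were S100a8 and S100a9, whose products form calprotectin, together with S100a1, S100a4, S100a6, S100a10, S100a11, S100a13, S100a16 and S100b. They were taken by gene name from the 43346 genes of the count table, where 17 S100 genes are listed. RNA of ventricular tissue was sequenced from 8 male C57BL/6 mice, and the labels name no transgene or gene deletion in either group. The 4 LLC1 mice received 1000000 LLC1 cells, a mouse lung carcinoma line, under the skin of the flank at 7 weeks of age, and the 4 PBS mice received the vehicle, phosphate-buffered saline, at the same age. All tissue was taken 14 days after the injection, so that it comes from a single time point and a single sex. Mice are named by group and by the replicate code of their label (LLC1 1-2, 1-3, 1-5 and 2-2, and PBS 1-1, 1-3, 2-1 and 2-5), and values per mouse are given in that order throughout. The comparison asks which of these transcripts differed in the heart of a mouse that carried the tumor.

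S100 proteins are small calcium-binding proteins with paired EF-hand motifs that act as dimers inside the cell, and several of them are also released and act on receptors of other cells. S100A8 and S100A9 are abundant in the cytosol of neutrophils and monocytes, bind zinc and manganese, and once released act on toll-like receptor 4 and on the receptor for advanced glycation end products. In cardiac muscle S100A1 is the main family member and acts on the ryanodine receptor and the calcium pump of the sarcoplasmic reticulum, whereas S100A4, S100A6, S100A10 and S100A11 are best known from fibroblasts, endothelium and other non-muscle cells.

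Library totals ran from 15342214 to 19747596 counts in LLC1 mice and from 12480706 to 16192158 counts in PBS mice. Levels are given as CPM, the counts of a gene per 1000000 counts of its library after scaling of the libraries by the trimmed mean of M-values (TMM). At this depth 3 counts, the limit that a count of 0 allows, correspond to 0.151 to 0.257 CPM. Intervals and limits of this kind cover counting error only. A transcript was called when the false discovery rate (FDR) of edgeR's quasi-likelihood test over all 16111 tested genes was under 0.05. In a principal component analysis the groups separated along the component with 31.5% of the variance, and PBS 1-1 stood apart from the other 7 mice along the component with 25.2%. Values of the members that PBS 1-1 moved are therefore also given without it. Cardiomyocyte markers were abundant in every library, with summed levels between 120364 and 140749 CPM over 12 genes. The edgeR p-values rest on a spread between these 8 animals that is estimated with information from all tested genes.

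Of the 17 S100 genes listed, 14 lie on mouse chromosome 3 (build mm10). Between 90511034 and 90695721 there are 12 of them, in the order S100a1, S100a13, S100a14, S100a16, S100a2, S100a3, S100a4, S100a5, S100a6, S100a7a, S100a8 and S100a9. S100a11 (93520488 to 93526287) and S100a10 (93555080 to 93564643) follow further along the same chromosome, and S100b lies on chromosome 10 (76253853 to 76261159). S100a1 (90511034 to 90514392, minus strand) and S100a13 (90514435 to 90524581, plus strand) start head to head with 42 bases between them. S100a8 (90669071 to 90670034, plus strand) and S100a9 (90692632 to 90695721, minus strand) face each other across 22597 bases. The transcripts are short, with 392 bases for S100a8 and 522 bases for S100a9 in the file and 1617 bases for S100a16, the longest of the 10.

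The 250 bases upstream of the start were set side by side for the members that were called in the comparison below, S100a8 and S100a9, which were higher, and S100a6 and S100a16, which were lower. They come from the RefSeq annotation of GRCm38.p6, the assembly of mm10, which gave windows for 9 of the 10 members. Each sequence runs 5′ to 3′ on the strand of its gene, and capitals mark the letters TATAAA of a TATA box and the letters TTNNGCAA (here on the opposite strand) of a binding motif of C/EBP proteins, which are transcription factors of myeloid and acute-phase genes.
S100a8, chr3:90668821-90669070, plus strand: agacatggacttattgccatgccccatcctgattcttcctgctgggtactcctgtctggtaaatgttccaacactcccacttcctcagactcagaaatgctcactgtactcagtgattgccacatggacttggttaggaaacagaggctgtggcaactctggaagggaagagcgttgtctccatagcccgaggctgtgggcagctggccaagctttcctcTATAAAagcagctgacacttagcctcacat
S100a9, chr3:90695722-90695971, minus strand: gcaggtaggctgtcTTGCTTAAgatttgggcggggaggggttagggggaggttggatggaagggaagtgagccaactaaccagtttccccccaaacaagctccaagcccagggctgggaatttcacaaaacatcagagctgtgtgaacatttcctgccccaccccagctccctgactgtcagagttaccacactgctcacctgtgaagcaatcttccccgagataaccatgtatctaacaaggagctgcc
S100a6, chr3:90612644-90612893, plus strand: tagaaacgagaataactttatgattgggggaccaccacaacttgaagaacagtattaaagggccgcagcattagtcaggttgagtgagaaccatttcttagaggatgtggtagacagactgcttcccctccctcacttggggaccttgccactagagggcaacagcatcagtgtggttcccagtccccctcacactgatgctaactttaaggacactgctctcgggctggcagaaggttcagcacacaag
S100a16, chr3:90537004-90537253, plus strand, the first of its 2 annotated starts: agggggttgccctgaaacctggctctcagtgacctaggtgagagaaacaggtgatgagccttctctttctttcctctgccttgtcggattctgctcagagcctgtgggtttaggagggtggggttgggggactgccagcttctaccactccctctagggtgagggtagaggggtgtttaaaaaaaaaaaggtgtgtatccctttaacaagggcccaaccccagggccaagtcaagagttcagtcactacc

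Motif letters were searched on both strands over 300 bases, the 250 shown and the first 50 after the start. In S100a8 the TATA box lay 30 to 25 bases before the start, and in S100a4 it lay 31 to 26 bases before the start. In S100a9 the same letters began at the annotated start base itself, and the C/EBP letters lay 236 to 229 bases upstream. S100a8 also held the core letters GAGGAA of a PU.1 site at 170 to 165 and at 36 to 31 bases upstream, on the opposite strand, the second next to its TATA box without overlapping it. The S100a16 window shown held the PU.1 core once, 180 to 175 bases upstream, and the S100a6 window held none of the 6 motifs searched. Neither S100a8 nor S100a9 held the STAT letters TTCNNNGAA, the AP-1 letters TGANTCA or an NF-kB motif in this window. Among 32851 mouse promoter windows of the same length, 13.6% held TATAAA, 10.8% held the C/EBP letters, 8.3% the STAT letters, 7.81% the AP-1 letters, 1.63% the NF-kB motif and 28.3% the PU.1 core. A match describes letters only and says nothing of occupancy in these hearts.

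Levels of the 10 transcripts were compared with each other per length, as CPM per kilobase, in the PBS mice. S100a1 stood first at 644 CPM per kilobase, above 99.5% of all tested genes, and made up 77.7% of the summed level of the 10 members. S100a6 (45.9), S100a11 (43.3), S100a13 (30.8), S100a10 (28.9) and S100a16 (26.9) followed in CPM per kilobase. S100a4 was lower at 7.31, and S100a8 (0.712), S100a9 (0.676) and S100b (0.539) were near the limit of detection. The ranges over the PBS mice overlapped between the neighbours S100a6 and S100a11, S100a13 and S100a10, S100a10 and S100a16, S100a8 and S100a9, and S100a9 and S100b, so these neighbours are not ordered beyond their spread. Between the other neighbours in the order the ranges did not overlap. In LLC1 mice the order was the same except that S100a11 stood above S100a6. There S100a8 and S100a9 reached 2.27 and 2.17 CPM per kilobase, and S100a1 made up 82.6% of the sum.

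**Figure D1:**
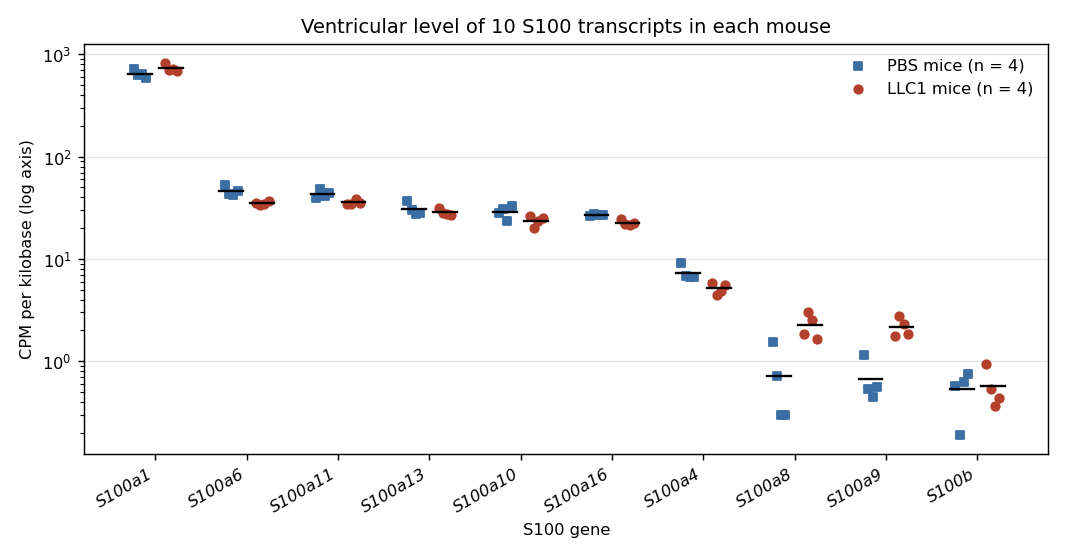
Level of each of the 10 S100 transcripts in CPM per kilobase on a log axis, with 1 point per mouse (squares for 4 PBS mice, circles for 4 LLC1 mice) and a bar at each group mean, ordered by the PBS mean. S100a1 is far above the other 9 genes in every mouse, and S100a8, S100a9 and S100b lie at the foot of the range.

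In the hearts of LLC1 mice the 2 calprotectin transcripts rose and 2 other transcripts of the family fell. S100a8 was 3.40-fold and S100a9 3.30-fold higher than in PBS mice, while S100a6 was at 0.765 and S100a16 at 0.840 of the PBS level. The other 6 members were not called. All 10 members passed the filter on low counts, which asks for 4 mice at or above 0.627 CPM before TMM scaling. S100a8 and S100a9 passed it only through the LLC1 group, with 4 LLC1 mice and 0 PBS mice at that level, so their calls are not independent of the filter. S100b passed through 3 mice of each group, and the other 7 members were above that level in all 8 mice. Among all tested genes 8.73% were called, 4.12% higher and 4.61% lower. Because of the filter the 2 higher calls are not read against these shares, and of the other 8 members 2 were called, both lower. When every gene with at least 1 count in any mouse was kept, a filter that does not favor either group, S100a8 (FDR = 0.0211) and S100a9 (FDR = 0.00526) were still called. Over all tested genes 663 were called higher and 743 lower, a split that went to 225 and 793 when the libraries were scaled to total counts only, with the same direction in each of the 4 called members. The log2 fold change was above 0 for 4 members and below 0 for 6, with a median of -0.18, and as a background 47.9% of all tested genes lay above 0 and their median was -0.01. In bulk tissue, fewer cells of a type and less RNA per cell cannot be told apart. The values follow gene by gene, first for calprotectin, then for the cardiomyocyte member and then for the stromal members.

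**Figure D2:**
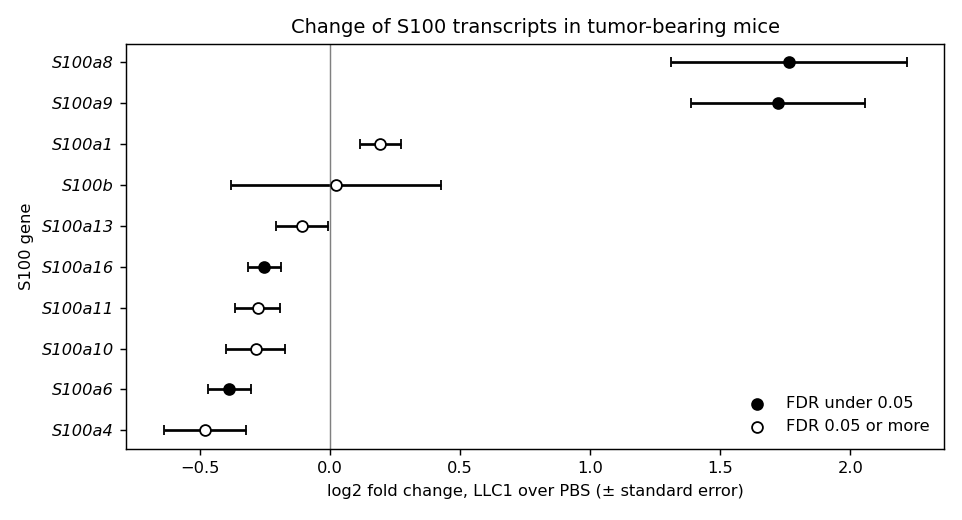
Log2 fold change of each S100 transcript, LLC1 over PBS, with its standard error (4 mice per group). Filled points have an FDR under 0.05: S100a8 at 1.76 and S100a9 at 1.72 on the right, S100a16 at -0.25 and S100a6 at -0.39 on the left.

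S100a8 (ENSMUSG00000056054) had 11, 18, 18 and 13 counts in the LLC1 mice and 7, 4, 2 and 2 counts in the PBS mice. The corresponding levels were 0.73, 1.19, 0.98 and 0.65 CPM in LLC1 mice and 0.60, 0.28, 0.12 and 0.12 CPM in PBS mice. Every LLC1 mouse was above every PBS mouse, with the highest PBS value in PBS 1-1 close to the lowest LLC1 value. The means were 0.888 ± 0.244 CPM in LLC1 mice and 0.279 ± 0.228 CPM in PBS mice (SD, n = 4 each), and the log2 fold change was 1.76 with a standard error of 0.45 (edgeR FDR = 0.0337). An exact 2-sided permutation of the group labels (70 arrangements) gave p = 0.0286, the smallest that 4 against 4 mice allow. S100a8 passed the low-count filter only through the LLC1 mice, so this p is not independent of the filter. Pooled over mice, 60 counts stood against 15, a depth-adjusted ratio of 3.50 with a 95% counting interval of 1.96 to 6.63. That interval covers counting error only and leaves out the spread between mice.

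S100a9 (ENSMUSG00000056071) had 14, 22, 22 and 19 counts in the LLC1 mice and 7, 4, 4 and 5 counts in the PBS mice. Its levels were 0.93, 1.45, 1.20 and 0.96 CPM in LLC1 mice and 0.60, 0.28, 0.24 and 0.30 CPM in PBS mice. The groups did not overlap, and as for S100a8 the highest values were in LLC1 1-3 and LLC1 1-5 and the highest control was PBS 1-1. The means were 1.13 ± 0.244 CPM against 0.353 ± 0.167 CPM (SD, n = 4 each), and the log2 fold change was 1.72 with a standard error of 0.33 (edgeR FDR = 0.0109). The exact permutation test again gave p = 0.0286, which is likewise not independent of the filter. The pooled 77 and 20 counts gave a ratio of 3.37, with a counting interval of 2.04 to 5.81 that again leaves out the spread between mice.

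The 2 calprotectin transcripts kept close to each other within a mouse. The ratio of S100a9 to S100a8 counts lay between 1.22 and 1.46 in the 4 LLC1 mice, and between 1.0 and 2.5 in the PBS mice, where both counts were in single digits. For neither gene was a near-identical transcript or an overlapping exon of another gene found in the annotation. With PBS 1-1 left out, the log2 fold change was 2.35 for S100a8 and 2.03 for S100a9. S100a9 was called with any 1 of the 8 mice left out, with its FDR at most 0.0427. S100a8 lost its call with each of the other 7 mice left out, with FDR up to 0.0990, and was called only without PBS 1-1. In these fits too, both genes passed the low-count filter only through the LLC1 mice.

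**Figure D3:**
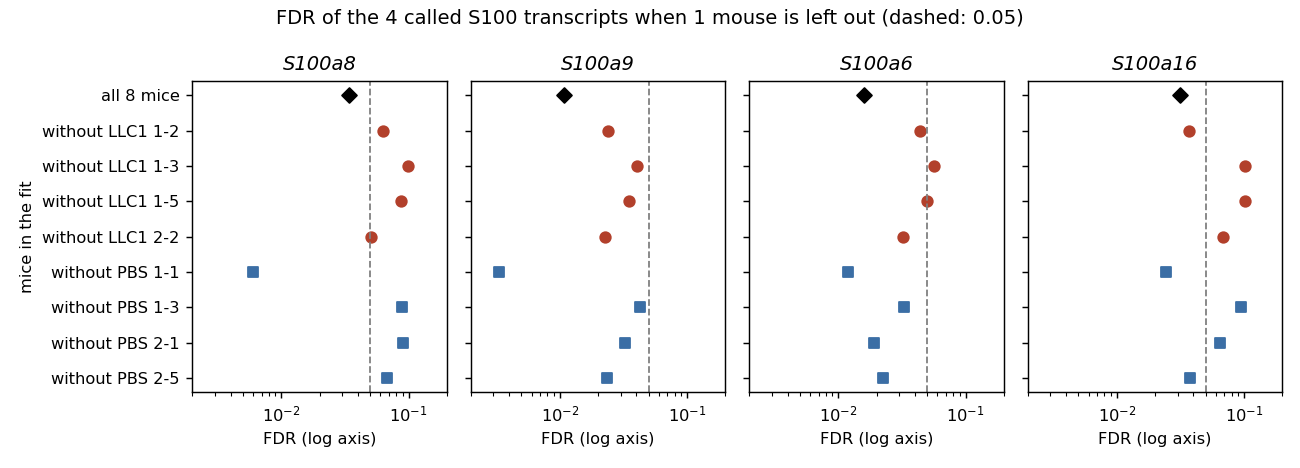
FDR (log axis) of the 4 called S100 transcripts with all 8 mice (diamond) and with each mouse left out (circles for an LLC1 mouse, squares for a PBS mouse), the dashed line being 0.05. All S100a9 points lie left of the line, S100a8 lies left of it with all mice and without PBS 1-1, S100a6 crosses it without LLC1 1-3 only, and S100a16 crosses it for 5 of the 8 mice.

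Calprotectin is a leading product of neutrophils, and the neutrophil list was measured in the same libraries. Of 22 neutrophil genes 6 passed the filter on low counts, of which 1 was called higher and 1 lower, with a median log2 fold change of 0.13. Their summed level was 12.6 to 16.1 CPM in LLC1 mice and 10.5 to 14.1 CPM in PBS mice, so that the ranges overlapped. Lcn2, which encodes the iron-siderophore carrier lipocalin-2 of neutrophil granules and of stressed tissue cells, was at 8.997, 5.40, 6.67 and 4.73 CPM in LLC1 mice and at 3.00, 3.15, 3.24 and 3.48 CPM in PBS mice. It rose with a log2 fold change of 0.99 (SE 0.20, FDR = 0.0118), and its highest mouse was LLC1 1-2 rather than LLC1 1-3. Il1b, which encodes the cytokine interleukin-1 beta, fell by 1.42 on the log2 scale (FDR = 0.0254), from 1.12 to 2.03 CPM in PBS mice to 0.274 to 0.988 CPM in LLC1 mice. Csf3r, the receptor for granulocyte colony-stimulating factor, had overlapping groups at 1.48 to 3.42 CPM and 0.826 to 2.17 CPM (log2 fold change 0.48, FDR = 0.389). Hdc was at 2.18 to 3.07 CPM in LLC1 mice and 2.23 to 3.07 CPM in PBS mice (log2 fold change -0.07, FDR = 0.842). Padi4 had a log2 fold change of -0.20 (FDR = 0.766). Of the 6 tested genes 3 had log2 fold changes above 0 and 3 below.

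Several markers that define mature and granule-forming neutrophils were at or near 0, but not all of the list. Mmp9, the gelatinase of neutrophil granules that other cells also make, had 10, 16, 21 and 18 counts in LLC1 mice and 7, 19, 10 and 9 counts in PBS mice (log2 fold change 0.32, FDR = 0.587). Cxcr2, the chemokine receptor of mature neutrophils, had 2, 8, 3 and 4 counts in LLC1 mice and 3, 0, 0 and 0 counts in PBS mice and was not tested. Clec4d, also not tested, had 2, 3, 8 and 7 counts in LLC1 mice and 2, 12, 4 and 7 counts in PBS mice. Il1r2, not tested either, had 2, 0, 2 and 1 counts in LLC1 mice and 0, 4, 3 and 4 counts in PBS mice. Ly6g, the surface antigen used to sort neutrophils, had 1 count in 1 of 8 mice. Elane, the elastase of primary granules, and Wfdc21 had no count in any mouse, and 11 of the 22 genes, those 2 included, had at most 3 counts in every mouse. Ngp and Camp, both of secondary granules, reached at most 1 and 3 counts. The collagenase Mmp8 had 2, 2, 3 and 2 counts in the LLC1 mice and 1, 0, 0 and 0 counts in the PBS mice, all at or under the limit for a count of 0. The part of neutrophils in the calprotectin result was not tested.

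Monocytes are the other main source of both proteins. Of 14 monocyte and macrophage genes, all tested, 1 was called higher and 3 were called lower, with a median log2 fold change of -0.28. Their summed level was 257 to 317 CPM in LLC1 mice and 248 to 359 CPM in PBS mice. Ly6c2, an antigen of inflammatory monocytes that is also found on endothelium and lymphocytes, rose from 16.4, 21.03, 21.8 and 25.97 CPM in PBS mice to 48.6, 37.5, 37.1 and 40.3 CPM in LLC1 mice (log2 fold change 0.93, SE 0.13, FDR = 0.00187). Ccr2, the chemokine receptor of the same monocytes, fell by 0.99 on the log2 scale (FDR = 0.0362). Mrc1, the mannose receptor of resident macrophages, fell by 0.42 on the log2 scale (FDR = 0.0301). The fractalkine receptor gene Cx3cr1 fell by 1.08 on the log2 scale (FDR = 0.0466), with groups that overlapped at 3.24 and 3.23 CPM. The Cx3cr1 call was lost with the replicate-code covariate, limma-voom, a robust fit or length offsets (FDR up to 0.0675), and without PBS 2-1 the log2 fold change was -0.68 (FDR = 0.0974). The calls of Mrc1 and Ccr2 were lost with GC offsets (FDR = 0.0786 and 0.0639). Erythroid genes, 4 globin genes and the heme-synthesis gene Alas2, which mark blood left in the tissue, summed to 1428 to 5180 CPM in LLC1 mice and 1556 to 3097 CPM in PBS mice, and none of the 5 was called by edgeR (0 at an unadjusted p under 0.05), DESeq2 or limma-voom. The part of monocytes or of retained blood was not tested.

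**Figure D4:**
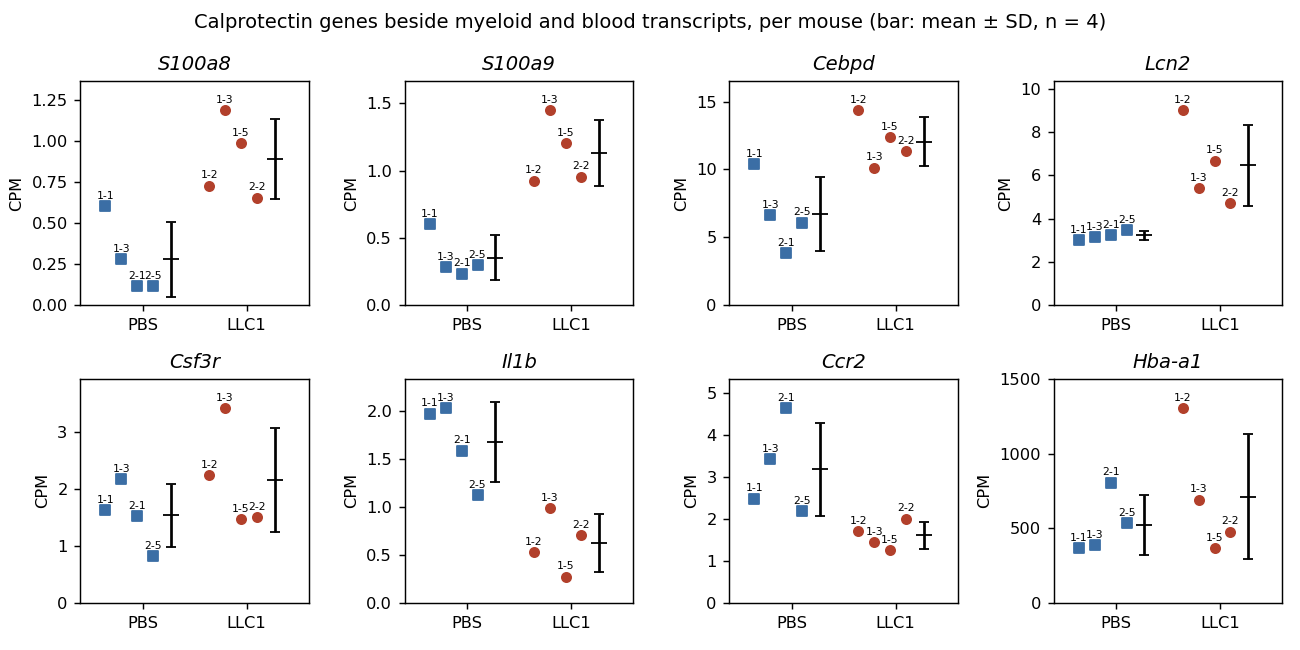
CPM per mouse of S100a8 and S100a9 and of 6 other transcripts, with the replicate code at each point and the mean ± SD beside each group (n = 4). S100a8, S100a9 and Lcn2 are higher in every LLC1 mouse than in any PBS mouse, Il1b and Ccr2 are lower in every LLC1 mouse, and Cebpd, Csf3r and Hba-a1 overlap.

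Of 6 transcription factors known to act on S100a8 and S100a9, all tested, 1 was called higher and none lower by edgeR, with a median log2 fold change of 0.14. At an unadjusted p under 0.05 there were 3, DESeq2 called 3 and limma-voom 1. As a background, 25.5% of all genes were at an unadjusted p under 0.05, 11.1% were called by DESeq2 and 8.6% by limma-voom. Cebpd, an acute-phase member of the C/EBP family, was at 14.4, 10.1, 12.4 and 11.3 CPM in LLC1 mice and at 10.4, 6.66, 3.83 and 6.08 CPM in PBS mice. The groups overlapped at LLC1 1-3 and PBS 1-1, and the log2 fold change was 0.87 (SE 0.23, FDR = 0.0350), a call that was lost with any mouse other than PBS 1-1 left out (FDR up to 0.0975). Cebpb had a log2 fold change of 0.54 (FDR = 0.0917) and Stat3, the factor downstream of interleukin-6, of 0.28 (FDR = 0.0702). Stat3 was called under 4 of 11 alternatives (FDR down to 0.0336) and Cebpb under 3 of 11 (down to 0.0284). The myeloid factors Cebpa and Spi1, the gene of PU.1, had log2 fold changes of -0.07 (FDR = 0.759) and -0.33 (FDR = 0.239), and Hif1a was at 0.01 (FDR = 0.963).

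On the receiving side, 12 receptors of extracellular S100 proteins and their adaptors were examined, of which 10 were tested. None was called higher and 2 were called lower by edgeR, with a median log2 fold change of -0.03. At an unadjusted p under 0.05 there were 4, and DESeq2 and limma-voom each called 3, Bsg among them. Of all genes 25.5% were at an unadjusted p under 0.05, 11.1% were called by DESeq2 and 8.6% by limma-voom. Tlr4, the receptor of calprotectin, was at 18.4 to 27.5 CPM in LLC1 mice and 18.1 to 25.6 CPM in PBS mice (log2 fold change 0.02, SE 0.14, FDR = 0.939). Its co-receptor Cd14 fell from 6.95, 7.22, 7.00 and 6.73 CPM in PBS mice to 4.76, 4.21, 3.88 and 6.24 CPM in LLC1 mice (log2 fold change -0.54, SE 0.15, FDR = 0.0453). With the replicate code as covariate the Cd14 call was lost (-0.495, FDR = 0.0506). Ly96, the other co-receptor, also had non-overlapping groups, with a log2 fold change of -0.53 that did not pass the test (FDR = 0.142). Mcam, an adhesion molecule that binds calprotectin, fell by 0.43 on the log2 scale (FDR = 0.0281). Bsg, which encodes basigin, a receptor of S100A9, was at 1170 ± 35.9 CPM in LLC1 mice and 1008 ± 49.8 CPM in PBS mice (SD, n = 4 each), a log2 fold change of 0.22 that missed the limit with edgeR (FDR = 0.0516) and passed it under 4 of 11 alternatives, DESeq2 (FDR = 0.00374) and limma-voom (FDR = 0.0327) among them. Ager, the receptor for advanced glycation end products, had between 1 and 11 counts per mouse and was not tested.

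S100a1 (ENSMUSG00000044080), the cardiomyocyte member, was at 576, 492, 503 and 475 CPM in LLC1 mice and at 494, 440, 444 and 411 CPM in PBS mice. The groups overlapped, with LLC1 1-2 highest and PBS 1-1 above LLC1 1-3 and LLC1 2-2. The means were 512 ± 44.4 CPM and 447 ± 34.7 CPM (SD, n = 4 each), and the log2 fold change of 0.19 (SE 0.08) did not pass the test (FDR = 0.145, exact permutation p = 0.0857). Without PBS 1-1 it was 0.25 and was called (FDR = 0.0465). Of 12 cardiomyocyte markers measured beside it, 2 were called higher (Myh6 and Ckm), none lower and 10 were not called, with a median log2 fold change of 0.15 and summed levels of 130454 to 140749 CPM in LLC1 mice against 120364 to 122830 CPM in PBS mice. Both calls were lost with GC offsets (Myh6 FDR = 0.160, Ckm FDR = 0.111) and with total counts only (FDR = 0.124 and 0.0503). Per mouse, the ratio of S100a1 to Tnni3, cardiac troponin I, was 0.1001 to 0.108 in LLC1 mice and 0.103 to 0.112 in PBS mice, so that the ranges overlapped.

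The partners of S100 proteins inside the cell numbered 15, of which 14 were tested, 1 was called higher and 1 lower by edgeR, with a median log2 fold change of -0.12. At an unadjusted p under 0.05 there were 6, DESeq2 called 4 and limma-voom 2. The shares over all genes were 25.5%, 11.1% and 8.6%, in that order. Ryr2, the ryanodine receptor on which S100A1 acts, had a log2 fold change of -0.17 (FDR = 0.351), the calcium pump gene Atp2a2 of 0.09 (FDR = 0.450) and its inhibitor Pln of 0.03 (FDR = 0.808). Anxa11, an annexin that binds S100A6, rose by 0.34 on the log2 scale (SE 0.08, FDR = 0.0200; 0.104 with total counts only), with 37.0 to 39.8 CPM in LLC1 mice and 27.7 to 33.3 CPM in PBS mice. Myh9, the non-muscle myosin heavy chain that S100A4 binds, fell by 0.44 on the log2 scale (SE 0.10, FDR = 0.0234; 0.0519 with length offsets), with 201 to 245 CPM in LLC1 mice and 259 to 346 CPM in PBS mice. Anxa2, whose product forms a tetramer with S100A10, had a log2 fold change of -0.26 (FDR = 0.121).

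S100a6 (ENSMUSG00000001025, calcyclin, which binds annexins and the calcyclin-binding protein) was at 25.5, 24.2, 24.9 and 26.2 CPM in LLC1 mice and at 38.0, 30.7, 30.4 and 33.1 CPM in PBS mice. Every LLC1 mouse was below every PBS mouse, and the LLC1 mice lay closer to each other than the PBS mice did. The means were 25.2 ± 0.871 CPM and 33.0 ± 3.52 CPM (SD, n = 4 each), and the log2 fold change was -0.39 (SE 0.08, FDR = 0.0159, exact permutation p = 0.0286). The call was kept with 7 of the 8 mice left out in turn and lost without LLC1 1-3 (FDR = 0.0568), and without PBS 1-1 the log2 fold change was -0.31.

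S100a16 (ENSMUSG00000074457), a widely expressed member, was at 39.4, 35.4, 34.6 and 36.7 CPM in LLC1 mice and at 42.8, 44.5, 43.4 and 43.1 CPM in PBS mice. The groups did not overlap, and the PBS mice were close to each other with a mean of 43.4 ± 0.749 CPM against 36.5 ± 2.09 CPM in LLC1 mice (SD, n = 4 each). The log2 fold change was -0.25 (SE 0.06, FDR = 0.0316, exact permutation p = 0.0286). The call was kept with 3 of the 8 mice left out in turn, with FDR up to 0.102 for the others.

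S100a4 (ENSMUSG00000001020), a marker of fibroblasts and of migrating cells, was at 3.44, 2.63, 2.84 and 3.27 CPM in LLC1 mice and at 5.32, 3.996, 3.88 and 3.95 CPM in PBS mice. The groups did not overlap, and PBS 1-1 stood above the other 3 PBS mice. The means were 3.05 ± 0.372 CPM and 4.29 ± 0.689 CPM (SD, n = 4 each), and the log2 fold change of -0.48 (SE 0.16) did not pass the test (FDR = 0.0819, exact permutation p = 0.0286). Without PBS 1-1 it was -0.37 (FDR = 0.135). Of its annotated exon bases 302, or 51.7%, are shared with the predicted gene Gm42674 on the same strand, which has no row in the count table, so how reads there were assigned is uncertain.

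S100a11 (ENSMUSG00000027907), an annexin A1 partner in membrane repair, was at 17.5, 17.4, 19.9 and 18.1 CPM in LLC1 mice and at 20.2, 24.7, 20.9 and 22.7 CPM in PBS mice. The groups did not overlap, yet the log2 fold change of -0.28 (SE 0.09) did not pass the test (FDR = 0.0697, exact permutation p = 0.0286). Without PBS 1-1 it was called (FDR = 0.0325). This value is uncertain because 5 other transcripts are at least 90% identical to S100a11 over 100 bases or more, the closest being Gm12854 at 98.99% and Gm7665 at 98.65% over 297 bases, with at most 49 and 57 counts in a mouse.

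S100a10 (ENSMUSG00000041959), the partner of annexin A2, was at 31.6, 24.2, 28.7 and 30.5 CPM in LLC1 mice and at 34.2, 37.5, 28.3 and 40.0 CPM in PBS mice. The groups overlapped through PBS 2-1, and the log2 fold change was -0.28 (SE 0.11, FDR = 0.140, exact permutation p = 0.114). The ratio of S100a10 to Anxa2 CPM was 0.436 to 0.498 in LLC1 mice and 0.428 to 0.521 in PBS mice. S100a13 (ENSMUSG00000042312), which takes part in the release of fibroblast growth factor 1, had a mean of 20.4 ± 1.34 CPM in LLC1 mice and 22.04 ± 3.13 CPM in PBS mice (SD, n = 4 each), with a log2 fold change of -0.11 (SE 0.10, FDR = 0.549). PBS 1-1 was at 26.6 CPM and the other PBS mice at 19.9 to 21.6 CPM, and without PBS 1-1 the value was -0.00819 (FDR = 0.965). S100b (ENSMUSG00000033208), a product of Schwann cells and other glia, had 21, 12, 10 and 13 counts in LLC1 mice and 10, 4, 16 and 19 counts in PBS mice. Its log2 fold change was 0.03 (SE 0.40, FDR = 0.979), and the pooled ratio of 0.999 had a counting interval of 0.669 to 1.497. The spread between mice adds to that interval, so a difference of this size or somewhat larger could not be seen here.

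Of the 10 members 6 had no overlap between groups, as had 17.2% of all tested genes. S100a8 and S100a9 lay above the PBS range, as 8.89% of all tested genes did, and nothing is read from that share because both passed the low-count filter only through the LLC1 mice. S100a4, S100a6, S100a11 and S100a16 lay below the PBS range, as 8.27% of all tested genes did. Markers of stromal cells were measured beside these members. Of 12 fibroblast genes 7 were called lower by edgeR and none higher (Col1a1, Col1a2, Col3a1, Lum, Postn, Vim and Fn1), with 9 at an unadjusted p under 0.05, 9 called by DESeq2 and 6 by limma-voom, and with a median log2 fold change of -0.59. Over all genes these shares were 25.5% at an unadjusted p under 0.05, 11.1% with DESeq2 and 8.6% with limma-voom. Gsn of the fibroblast list had positive log2 fold changes throughout (0.17 to 0.29 over the alternatives) and was called higher under 3 of 11. The summed level of the list, 2662 to 2999 CPM in LLC1 mice and 2666 to 3519 CPM in PBS mice, overlapped. Dcn, the proteoglycan of cardiac fibroblasts, had a log2 fold change of 0.07 (FDR = 0.612), and the ratio of S100a6 to Dcn CPM was 0.0514 to 0.0624 in LLC1 mice and 0.0695 to 0.0914 in PBS mice. The ratio of S100a6 to Vim CPM was 0.132 to 0.140 in LLC1 mice and 0.0954 to 0.171 in PBS mice.

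The other lists of non-muscle cells were measured in the same way. The 9 endothelial genes had 1 call higher (Flt1) and 2 lower (Kdr and Emcn), with a median of -0.17. None of the 7 smooth muscle and pericyte genes was called by edgeR (3 at an unadjusted p under 0.05) or limma-voom and 1 was called by DESeq2, with a median of -0.21 and summed levels of 821 to 880 CPM in LLC1 mice and 937 to 1106 CPM in PBS mice. Of all genes 25.5% were at an unadjusted p under 0.05, and DESeq2 called 11.1%. None of the 7 mesothelial genes was called by edgeR (0 at an unadjusted p under 0.05), DESeq2 or limma-voom (median 0.33, summed levels 12.1 to 69.7 CPM and 19.9 to 54.2 CPM). Of 7 Schwann cell genes 5 were tested and 1, Mbp, was called higher (median 0.27). None of the 6 adipocyte genes passed the filter, with summed levels of at most 2.57 CPM. Of the 24 list genes called, 6 kept the call with each mouse left out in turn (Lcn2, Ly6c2, Col3a1, Lum, Postn and Kdr), Vim lost it for 2 mice and Emcn for 3, and the other 16 lost it for 4 or more of the 8 mice. With all mice kept, 13 of the 24 lost the call under at least 1 alternative. Among fibroblast genes these were Col1a1 (FDR up to 0.101) and Fn1 (up to 0.0839), and among the other lists of this paragraph Flt1 (up to 0.0719), Emcn (up to 0.0628) and Mbp (up to 0.0897). The part of any of these cell types in the S100 values was not tested.

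The members differed among themselves in how they went together over the 8 mice. On log2 CPM, S100a4 and S100a6 had a Pearson r of 0.954 (Spearman rho 0.952), and S100a8 and S100a9 a Pearson r of 0.960 (rho 0.952). The most opposed pairs were S100a9 with S100a16 (r = -0.922, rho = -0.952), S100a9 with S100a11 (r = -0.828, rho = -0.833) and S100a8 with S100a16 (r = -0.823, rho = -0.881). These correlations are descriptions over 8 libraries that fall into 2 groups and share depth and scaling. Among all tested genes the pattern of S100a8 was most like that of Gfra4 (r = 0.968), Rsph3b (0.963) and S100a9. The pattern of S100a9 was most like that of Rpl3l (r = 0.982), Acot2 (0.980) and Zwint (0.978), the genes most like S100a1 included Cnbp (0.974) and Pla2g16 (0.974), and the pattern of S100a6 was most like that of Pdzd8 (0.983), Ttc14 (0.972) and Sdccag3 (0.968).

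The other 7 S100 genes listed were not tested because of their low counts. S100a7a had 1 to 9 counts per mouse, S100a14 and S100g at most 2, and S100a3 at most 1. S100a2, S100a5 and S100z had no count in any of the 8 mice, which at this depth allows levels of up to 0.151 to 0.257 CPM.

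S100 transcripts are short, and short transcripts as a class stood higher in the LLC1 libraries. The median log2 fold change was 0.12 over the 1945 tested genes of up to 1000 bases and -0.06 over the 6595 genes above 4000 bases. With offsets that remove the trend with length, 8.76% of all tested genes were called, and so were 5 members, among them S100a9, which passed the low-count filter only through the LLC1 mice and is not read against that share. S100a4 (log2 fold change -0.62, FDR = 0.0347) and S100a11 (-0.42, FDR = 0.0126) were then called, S100a8 lost its call (1.61, FDR = 0.0528), S100a9, S100a6 and S100a16 stayed called, and S100a1 went to 0.06 (FDR = 0.636). Between the single mice left out, the number of members called ran from 1 without LLC1 1-3 (S100a9) to 6 without PBS 1-1 (S100a1, S100a6, S100a8, S100a9, S100a11 and S100a16). Of all genes tested in these fits 3.88% and 11.9% were called, and nothing is read from these shares for S100a8 and S100a9.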

How the data were processed

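RNA sequencing of cardiac ventricles of 8 male mice was used, 4 LLC1 and 4 PBS. The values are counts per gene, deposited by the authors for each mouse without normalization, from paired-end reads of TruSeq libraries. The submitters' processing notes name CASAVA, STAR, featureCounts and build mm10, with no versions, and the strand setting and annotation are not given in the sources used here. Gene length in bases is the authors' column in the same deposited file, and CPM per kilobase was computed with it.

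Libraries were scaled with TMM factors in edgeR 4.0.16 (R 4.3.3), genes were kept by filterByExpr (16111 of 43346), and the quasi-likelihood F-test was run across all of them without covariates, since the groups share only the code 1-3, carried by different animals. FDR is the Benjamini-Hochberg adjusted p-value over all tested genes. Group means carry the SD over 4 mice on the TMM-scaled CPM, and log2 CPM used a prior count of 2. Counting intervals are exact at a confidence level of 95%. The exact permutation test covered 70 arrangements. Pearson r over log2 CPM named the 3 genes most like S100a8, S100a9, S100a1 and S100a6, of which 1 is not reported here.

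Gene symbols come from the file, with Adgre1 listed under its older symbol and matched by gene ID. Exon overlaps, strands and similar transcripts (BLAST 2.17.0, at least 90% identity over at least 100 bases) were taken from GENCODE M21. The steps were tested on simulated data.

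The alternatives were DESeq2 1.42.0, upper-quartile scaling, total counts only, 2 other filters on low counts, a robust fit of the prior variance, limma-voom in limma 3.58.1, a covariate made from the leading digit of the replicate code, offsets for gene length or GC content (loess span 0.3) and each mouse left out, each also applied to the list genes that were called. DESeq2 without independent filtering, added after seeing the data, is counted among the alternatives. The S100 members and the gene lists were chosen with earlier results of these data known. The genes named are the members, the genes of the lists and the most similar genes by the rule above.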

Additional observations from a re-analysis of the deposited data

Results flagged for a closer look

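In 6 of 126 groups of 4 mice, over the 63 genes followed, 1 mouse lay far from the other 3 (Dixon's test), and chance flags about 1 in 20 groups. PBS 1-1 was that mouse in 4 of them. S100a4 was at 5.32 CPM in PBS 1-1 and at 3.88 to 3.996 CPM in the other PBS mice. S100a9 was at 0.601 CPM in PBS 1-1 and at 0.235 to 0.295 CPM in the others, so that its rise in LLC1 mice was larger without PBS 1-1. Ttn, the giant sarcomere protein gene, was at 18482 CPM in PBS 1-1 against 8261 to 8446 CPM, and C1qa, a complement gene of macrophages, at 29.8 CPM against 48.9 to 50.6 CPM. Among LLC1 mice, Myh6 was at 56460 CPM in LLC1 1-5 against 53471 to 53927 CPM, and Postn at 19.2 CPM in LLC1 1-3 against 27.4 to 28.8 CPM.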

How the results depend on the processing

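S100a9 was called under all 10 alternatives that kept it and with every mouse left out, and S100a6 under all 11 alternatives and with 7 of 8 mice left out. S100a9 and S100a8 passed the low-count filter of these fits only through the LLC1 mice. The exception was the fit that kept every gene of at least 1 count. S100a16 was called under 10 of 11 alternatives (not with every gene of at least 1 count kept, FDR = 0.0714). S100a8 was called under 8 of 9 and missed the limit with length offsets (log2 fold change 1.61). DESeq2 gave it no adjusted p. The 8 include DESeq2 without independent filtering, a setting added after seeing the data. Leaving out 1 mouse gave log2 fold changes of 1.49 to 2.35 for S100a8. Requiring at least 10 counts in every mouse removed S100a8, S100a9 and S100b and left 2 members called. Of all genes tested in that fit 8.91% were called. With 1 mouse left out, 542 genes (without PBS 1-3) to 1949 genes (without PBS 1-1) were called against 1406, 1 (without LLC1 1-3) to 6 (without PBS 1-1) members against 4, and 8 (without PBS 1-3) to 34 (without PBS 1-1) list genes against 24. With scaling to total counts only, 225 genes were higher and 793 lower, against 663 and 743. Among the genes followed, directions turned only for those without a call. S100b went to -0.0324 with total counts only and -0.0308 with length offsets, and ranged from -0.30 to 0.24 with a mouse left out. Hif1a went to -0.0447 with total counts only and -0.00888 with the covariate (-0.0486 to 0.0374), Cnp to -0.00634 with total counts only and -0.0173 with GC offsets (-0.00877 to 0.0957), and Tpm1 to 0.0287 with length offsets (-0.0672 to 0.000189). Leaving out a mouse also turned Ttn (-0.479 to 0.0186, without PBS 1-1), Hdc (-0.181 to 0.00183), and Hbb-bs (-0.17 to 0.56), Hba-a1 (-0.0279 to 0.723) and Hbb-bt (-0.12 to 0.60), the last 3 without LLC1 1-2. The cause was not tested. No paired analysis was possible because the groups share only 1 replicate code. S100a8, S100a9 and S100b have at most 22 counts per mouse, which limits the precision of their fold changes.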
